A study of Homo sapiens with 16 samples.

Results

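NFE2L2, the gene of the transcription factor NRF2, and 8 genes that NRF2 is known to activate were followed in 16 libraries of total RNA from LNCaP cells. The 9 genes were GCLC, GCLM, TXNRD1, SRXN1, NQO1, HMOX1, PGD, TALDO1 and NFE2L2 itself, matched by gene ID among the 60676 genes of the tables. The genes were chosen by the levels of GCLC, which were higher with drug in both genotypes, so the drug contrasts of all 9 are given as descriptions, without tests. The genotype contrasts were not used in the choice and are tested. The interaction is tested as well, but it is the difference of those drug contrasts, and the choice asked for higher GCLC in both. Its values for the 9 genes are therefore not independent of the choice.

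LNCaP is an androgen-responsive prostate cancer line that was derived from a lymph node metastasis. LNCaP cells with a CRISPR-Cas9 knockout of both RB and p53 (DKO) and LNCaP WT cells were kept for 6 days in 50 µM enzalutamide (EZ), which blocks the androgen receptor, or in as much of its solvent, DMSO. The groups were DKO EZ, DKO DMSO, WT EZ and WT DMSO, with 4 replicates each, all grown in medium with fetal bovine serum. The labels do not say whether the DKO line was 1 clone or a pool, nor whether the replicates were grown separately. The p-values therefore reflect the spread among these samples alone, and part of it may be technical.

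NRF2 is held at a low level by KEAP1, an adaptor that brings it to a CUL3 ubiquitin ligase. When electrophiles or oxidants modify KEAP1, NRF2 escapes, pairs with a small MAF protein and binds antioxidant response elements, from which the repressor BACH1 is displaced. Its targets make glutathione, reduce thioredoxin, detoxify quinones and haem, and supply NADPH. Much of this control acts on the NRF2 protein, which RNA levels do not measure.

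Windows of 300 bases around the annotated starts (250 before, 50 from the start on; RefSeq, GRCh38.p14) were searched for the core of the antioxidant response element, TGACNNNGC, on both strands. The core was found in 4687 of all 35116 windows, which is 13.3%. The table held 10 windows for 8 of the 9 genes, and 4 of the 10 held the core. They belonged to GCLM, PGD and both starts of TXNRD1. The windows of NFE2L2, GCLC, NQO1, TALDO1 and SRXN1 had no match in these letters, and HMOX1 had no entry. No window of these genes held the AP-1 motif TGAGTCA, which 4.9% of all windows hold. A match is a description of the letters and not a measured binding site. The upstream sequences with a match are shown because they are where these windows carry the letters that NRF2 is known to read. DNA outside the windows was not searched, so a window without a match does not show that its gene lacks such an element. They are written 5′ to 3′ on the gene's strand with the core in capitals; where the core lies on the other strand, the capitals are its reverse complement. GCLM is at chr1:93909430-93909680 (minus strand), with its core from position -34 to -26. The first start of TXNRD1 is at chr12:104215529-104215779 (plus strand), with cores from -99 to -91 and from -8 to the first transcribed base. The PGD stretch is at chr1:10398853-10398881 (plus strand) and that of the second TXNRD1 start at chr12:104286920-104286948 (plus strand), both shortened to 10 bases on either side of the core. These shortened stretches lie upstream of a RefSeq start but inside the gene as GENCODE annotates it.
GCLM upstream: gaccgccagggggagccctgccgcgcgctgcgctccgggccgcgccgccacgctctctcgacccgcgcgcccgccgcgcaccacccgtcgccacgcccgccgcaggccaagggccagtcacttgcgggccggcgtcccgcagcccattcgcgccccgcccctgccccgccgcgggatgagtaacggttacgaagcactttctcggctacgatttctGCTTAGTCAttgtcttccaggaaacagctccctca
TXNRD1 first start, upstream: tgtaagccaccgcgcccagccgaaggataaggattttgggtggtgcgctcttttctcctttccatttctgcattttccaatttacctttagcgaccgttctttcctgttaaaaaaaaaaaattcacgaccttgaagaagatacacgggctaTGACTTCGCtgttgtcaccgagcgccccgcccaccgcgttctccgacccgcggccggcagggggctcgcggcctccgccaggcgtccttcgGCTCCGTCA
TXNRD1 second start, core and flanks: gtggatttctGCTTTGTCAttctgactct
PGD, core and flanks: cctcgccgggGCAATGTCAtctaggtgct

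Counts per library summed to between 11823438 and 47678648 (median 23919882). RB1 stood at 9.04 to 13.4 CPM (counts set to a common library size, scaled by TMM) in the 8 DKO libraries, against 95.6 to 128 CPM in the 8 WT libraries. All 10 luminal prostate markers passed the filter on low counts, and all 5 leukocyte markers stayed under 1 CPM in every library. Of the markers of other cell types, 2 of 5 basal, 3 of 5 fibroblast and 1 of 5 endothelial genes passed the filter. COL1A1 averaged 37.4 CPM in DKO EZ and 32.5 CPM in DKO DMSO, against 17.3 CPM in WT EZ and 17.2 CPM in WT DMSO. LUM averaged 4.36 CPM in DKO EZ and 3.06 CPM in DKO DMSO, against 0.146 CPM in WT EZ and 0.356 CPM in WT DMSO. ITGB4 averaged 18.9 CPM in DKO EZ, against 7.40 CPM in WT EZ, and was likewise higher by group mean in DKO DMSO than in WT DMSO. KRT5, DCN, COL1A2, PECAM1 and CDH5 averaged under 1 CPM in every group, but not all markers on these lists did. The endothelial marker VWF averaged 13.1 CPM in WT DMSO and 7.87 CPM in DKO DMSO. The fibroblast marker PDGFRB averaged 3.46 CPM in DKO DMSO and 1.91 CPM in WT DMSO. The basal marker KRT15 averaged 1.56 CPM in DKO DMSO and under 1 CPM in the other groups. The part of these markers in the genotype differences below was not tested. By the share of RN7SL1, a structural RNA, 6 libraries were high (2201 to 6207 CPM of the library total; WT replicate 1 and DKO replicates 1 and 2, with both treatments) and 10 were low (481 to 1166). A pair of WT libraries stood apart in the results below, DMSO replicate 4 and EZ replicate 1, and values without them are given beside the fold changes they moved.

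Of the 9 genes, 8 passed the filter. SRXN1, which encodes sulfiredoxin, an enzyme that reactivates overoxidised peroxiredoxins, had 0 to 4 counts in every library. It was at 0 in 5 libraries, where 3 counts, the limit that a count of 0 allows, would be 0.0812 to 0.129 CPM of the library total. Its exons share 85.0% of their bases with AL121758.1, a gene with 12 to 43 counts per library. The strand setting of the counting is not given in the sources used here, and a gene's reads in shared bases may have been assigned elsewhere or dropped. The value of SRXN1 is therefore uncertain.

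Per kilobase of exon and averaged over the 16 libraries, the level was highest for PGD at 118 CPM per kb and TXNRD1 at 106 CPM per kb. TALDO1 followed at 59.8, NQO1 at 39.1, GCLM at 22.3, NFE2L2 at 16.7, HMOX1 at 11.8 and GCLC at 8.19 CPM per kb. Each neighbouring pair in this order overlapped in its ranges over the 16 libraries, so that the order is that of the means only. NFE2L2 lies on chromosome 2 (GRCh38, 177227595 to 177392697, minus strand) and shares exon bases with AGPS, so part of the NFE2L2 level is uncertain for the same reason.

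**Figure D1:**
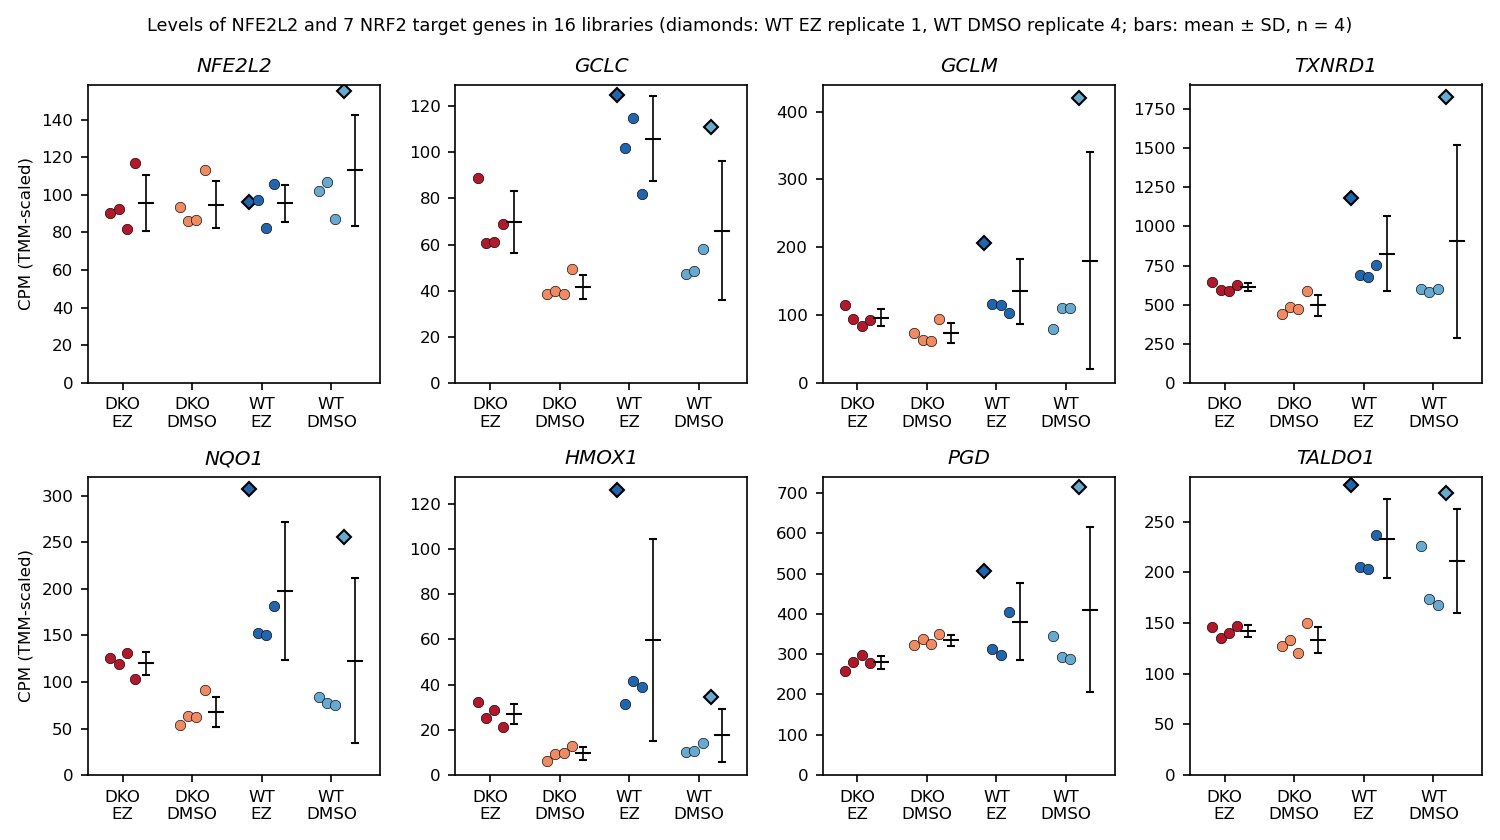
Each panel shows 1 gene, with the 4 groups along the x axis and TMM-scaled CPM per library on the y axis; points are libraries, and the bars at the right of each group are mean ± SD (n = 4). WT DMSO replicate 4 and WT EZ replicate 1 (diamonds) sit at the top of their groups in nearly every panel, for example GCLM at 420 CPM in WT DMSO replicate 4.

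NFE2L2 itself differed little between the groups. It stood at 90.4, 92.6, 82.0 and 117 CPM in DKO EZ libraries (replicates 1 to 4) and 93.7, 86.2, 86.6 and 113 CPM in DKO DMSO libraries. It stood at 96.0, 97.2, 82.6 and 106 CPM in WT EZ libraries and 102, 107, 87.2 and 155 CPM in WT DMSO libraries. The 4 groups overlapped, and WT DMSO replicate 4 was the highest library. With EZ its log2 fold change was 0.01 ± 0.16 (SE) in DKO and -0.24 ± 0.16 in WT, as a description. The WT value was -0.02 ± 0.14 without DMSO replicate 4.

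GCLC, the catalytic subunit of glutamate-cysteine ligase, the rate-limiting enzyme of glutathione synthesis, lies on chromosome 6 (53497341 to 53616970, minus strand). It had 88.9, 60.5, 61.1 and 68.8 CPM in DKO EZ libraries, against 38.5, 40.0, 38.5 and 49.2 CPM in DKO DMSO libraries. Every DKO EZ library lay above every DKO DMSO library. It had 125, 102, 115 and 82.1 CPM in WT EZ libraries, against 47.0, 48.4, 57.9 and 111 CPM in WT DMSO libraries. In WT the groups overlapped through DMSO replicate 4 alone, which lay among the EZ libraries. The log2 fold change was 0.75 ± 0.23 in DKO and 0.68 ± 0.23 in WT. In WT it was 1.08 ± 0.15 without DMSO replicate 4 and 0.60 ± 0.25 without EZ replicate 1. These are the values for which the genes were chosen.

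GCLM, the modifier subunit that lowers the ligase's feedback inhibition by glutathione, lies on chromosome 1 (93885205 to 93909456, minus strand). It had 114, 94.8, 83.9 and 91.9 CPM in DKO EZ libraries, against 73.5, 63.4, 62.2 and 93.7 CPM in DKO DMSO libraries. It had 206, 116, 115 and 103 CPM in WT EZ libraries, against 79.3, 111, 110 and 420 CPM in WT DMSO libraries. Both pairs of groups overlapped, and WT DMSO replicate 4 stood far above the other WT DMSO libraries. The log2 fold change with EZ was 0.39 ± 0.42 in DKO and -0.42 ± 0.42 in WT. The WT value was 0.46 ± 0.21, with the sign turned, when WT DMSO replicate 4 was left out, and -0.69 ± 0.45 without WT EZ replicate 1.

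TXNRD1, cytosolic thioredoxin reductase, which returns oxidised thioredoxin to its reduced form with NADPH, lies on chromosome 12 (104215779 to 104350305, plus strand). It had 645, 592, 590 and 625 CPM in DKO EZ libraries, against 439, 485, 470 and 589 CPM in DKO DMSO libraries. It had 1180, 690, 674 and 756 CPM in WT EZ libraries, against 601, 580, 602 and 1831 CPM in WT DMSO libraries. In DKO the groups did not overlap, but DMSO replicate 4 was nearly level with EZ replicate 3. In WT, DMSO replicate 4 was the highest of all 16 libraries. The log2 fold change with EZ was 0.31 ± 0.31 in DKO and -0.13 ± 0.31 in WT, where it was 0.50 ± 0.17 without DMSO replicate 4 and -0.35 ± 0.33 without EZ replicate 1.

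NQO1, which reduces quinones by 2-electron transfer, lies on chromosome 16 (69706996 to 69726951, minus strand). It had 126, 119, 131 and 103 CPM in DKO EZ libraries, against 53.9, 63.6, 62.1 and 91.4 CPM in DKO DMSO libraries. It had 307, 153, 151 and 182 CPM in WT EZ libraries, against 83.5, 77.7, 75.7 and 256 CPM in WT DMSO libraries. The DKO groups did not overlap, and the WT groups overlapped only through DMSO replicate 4. For NQO1 the log2 fold change with EZ was 0.82 ± 0.36 in DKO and 0.68 ± 0.36 in WT, where it was 1.36 ± 0.23 without DMSO replicate 4 and 0.40 ± 0.36 without EZ replicate 1.

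HMOX1, the inducible haem oxygenase, lies on chromosome 22 (35380361 to 35394214, plus strand) and had the largest fold changes with the drug among the 8 genes in both genotypes. It had 32.3, 25.4, 28.7 and 21.4 CPM in DKO EZ libraries, against 6.12, 9.38, 9.81 and 12.9 CPM in DKO DMSO libraries. It had 126, 31.5, 41.6 and 39.0 CPM in WT EZ libraries, against 10.2, 10.7, 14.3 and 34.7 CPM in WT DMSO libraries. The DKO groups did not overlap, and in WT only DMSO replicate 4 reached into the EZ range. For HMOX1 the log2 fold change with EZ was 1.49 ± 0.47 in DKO and 1.77 ± 0.47 in WT. The WT value was 2.38 ± 0.44 without DMSO replicate 4, 1.11 without EZ replicate 1, and 1.71 ± 0.22 without both.

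PGD and TALDO1 are enzymes of the pentose phosphate pathway. PGD, phosphogluconate dehydrogenase, makes NADPH in the oxidative branch, and TALDO1, transaldolase, works in the branch that returns sugars to glycolysis. PGD lies on chromosome 1 (10398592 to 10420144, plus strand) and TALDO1 on chromosome 11 (747329 to 765024, plus strand). PGD had 259, 281, 299 and 279 CPM in DKO EZ libraries, against 322, 337, 326 and 350 CPM in DKO DMSO libraries. It had 506, 312, 299 and 405 CPM in WT EZ libraries, against 344, 292, 289 and 715 CPM in WT DMSO libraries. PGD was the only one of the 8 whose DKO EZ libraries all lay below the DKO DMSO libraries, with a log2 fold change of -0.25 ± 0.24, and in WT the value was -0.11 ± 0.24 with overlapping groups. The PGD value in WT turned to 0.33 ± 0.16 without DMSO replicate 4 and to 0.17 without both WT libraries that stood apart. TALDO1 had 146, 135, 140 and 147 CPM in DKO EZ libraries, against 127, 133, 120 and 150 CPM in DKO DMSO libraries. It had 286, 205, 203 and 237 CPM in WT EZ libraries, against 226, 174, 168 and 278 CPM in WT DMSO libraries. The TALDO1 groups overlapped in both genotypes, with log2 fold changes of 0.10 ± 0.15 in DKO and 0.14 ± 0.15 in WT, where the value was 0.33 ± 0.14 without DMSO replicate 4 and 0.04 ± 0.16 without EZ replicate 1.

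Over the 8 tested genes, the median log2 fold change with EZ was 0.35 in DKO, against 0.01 over all tested genes, and 0.02 in WT, against -0.03 over all tested genes. Of all 21810 tested genes, 1.48% passed the adjusted threshold of 0.05 for EZ against DMSO in DKO and 3.32% in WT (edgeR). No count of calls among the 8 genes is given, since their choice used these contrasts. In DKO, 4 of 8 lay above DMSO and 1 below it without overlap, against 5.20% and 4.41% of all tested genes (9.61% together). In WT, 0 of 8 were free of overlap, where 5.78% of all tested genes lay above and 3.81% below (9.59% together). Nothing is read from these shares, for the same reason.

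Libraries with the same replicate number deviated together within a genotype, so EZ was also set against DMSO number by number. In DKO, 6, 7, 6 and 5 of the 8 genes were higher with EZ in pairs 1 to 4, with median log2 differences of 0.59, 0.43, 0.38 and 0.07. In WT, 7 of the 8 genes were higher with EZ in each of pairs 1, 2 and 3, with medians of 1.17, 0.24 and 0.22. In WT pair 4, 1 of the 8 was higher with EZ and the median was -0.52. That gene was HMOX1, with a difference of 0.17 on the log2 scale, against 3.62 in WT pair 1. In the 3 WT pairs other than pair 4, the gene lower with EZ was NFE2L2. GCLC, NQO1 and TXNRD1 were higher with EZ in all 4 DKO pairs and in 3 of 4 WT pairs, and HMOX1 in all 8 pairs. A fit with the replicate number as a block within each genotype called more genes over all, 1691 in DKO and 2641 in WT.

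**Figure D2:**
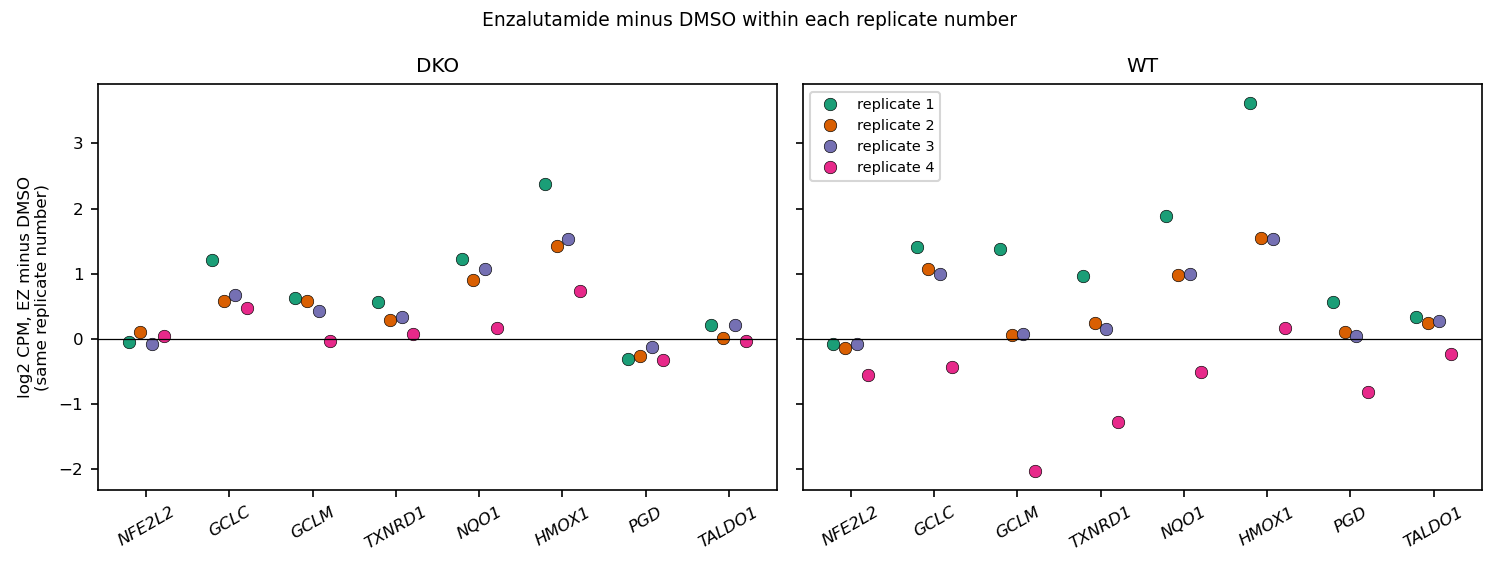
The y axis is the log2 CPM difference, EZ minus DMSO, between libraries of the same genotype and replicate number, for 8 genes along the x axis; colours are replicate numbers. HMOX1 lies above 0 in all 8 pairs, and in WT the replicate 4 pair (pink) is the lowest for every gene, with 1 of 8 above 0.

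WT DMSO replicate 4 was the highest library of its group for 8 of 8 genes, whereas it was the highest for 32.7% of all tested genes. Relative to the mean of the other 3 WT DMSO libraries its level was 4.20-fold for GCLM, 3.24-fold for NQO1, 3.08-fold for TXNRD1, 2.95-fold for HMOX1, 2.32-fold for PGD, 2.17-fold for GCLC, 1.57-fold for NFE2L2 and 1.47-fold for TALDO1. WT EZ replicate 1 was the highest of its group for 7 of 8 genes (29.3% of all tested genes), with 3.38-fold for HMOX1, 1.90-fold for NQO1, 1.85-fold for GCLM and 1.25-fold for GCLC over the other 3 WT EZ libraries. These are descriptions, with no test, since the libraries were singled out after their values were seen.

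The same 2 libraries had the lowest level of mitosis genes in their groups. The mean log2 CPM of 18 mitosis genes was 3.09 in WT EZ replicate 1, whereas the remaining WT EZ libraries had 5.15 to 5.22. It was 3.60 in WT DMSO replicate 4, whereas the remaining WT DMSO libraries had 5.28 to 6.07. DKO EZ replicate 1, at 3.92, was likewise the lowest of its group, and it held the group's highest level for 4 of 8 genes, GCLC, GCLM, TXNRD1 and HMOX1 (33.6% of all tested genes). DKO DMSO replicate 4, the lowest of its group at 5.28, held the group's highest level for 8 of 8 genes (37.4% of all tested genes), by smaller margins than in WT. In each of the 4 groups, then, the library with the least mitosis RNA held the highest level of at least 4 of the 8 genes. The part of the mitosis level in these differences was not tested. In bulk RNA, fewer cells of one kind and less RNA per cell cannot be told apart.

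Other genes of the pathway stood high in the same library; those named here were chosen after their values were seen. SQSTM1, the autophagy receptor that sequesters KEAP1, was at 2051 CPM in WT DMSO replicate 4, against 349, 450 and 511 CPM in WT DMSO replicates 1 to 3. That is 2.19 above their median on the log2 scale, at percentile 99.7 of 11521 genes over 5 CPM. AKR1C1, an aldo-keto reductase, stood at 7.68 CPM in WT DMSO replicate 4, against 1.67, 0.967 and 0.754 CPM in the others. Near-identical family members such as AKR1C1, AKR1C2 and AKR1C3 can share reads and are uncertain. ME1, malic enzyme, which makes NADPH, stood at 871 CPM, against 240, 297 and 278 CPM. KEAP1 did not stand apart, at 92.1 CPM against 89.7, 74.5 and 83.9 CPM.

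**Figure D3:**
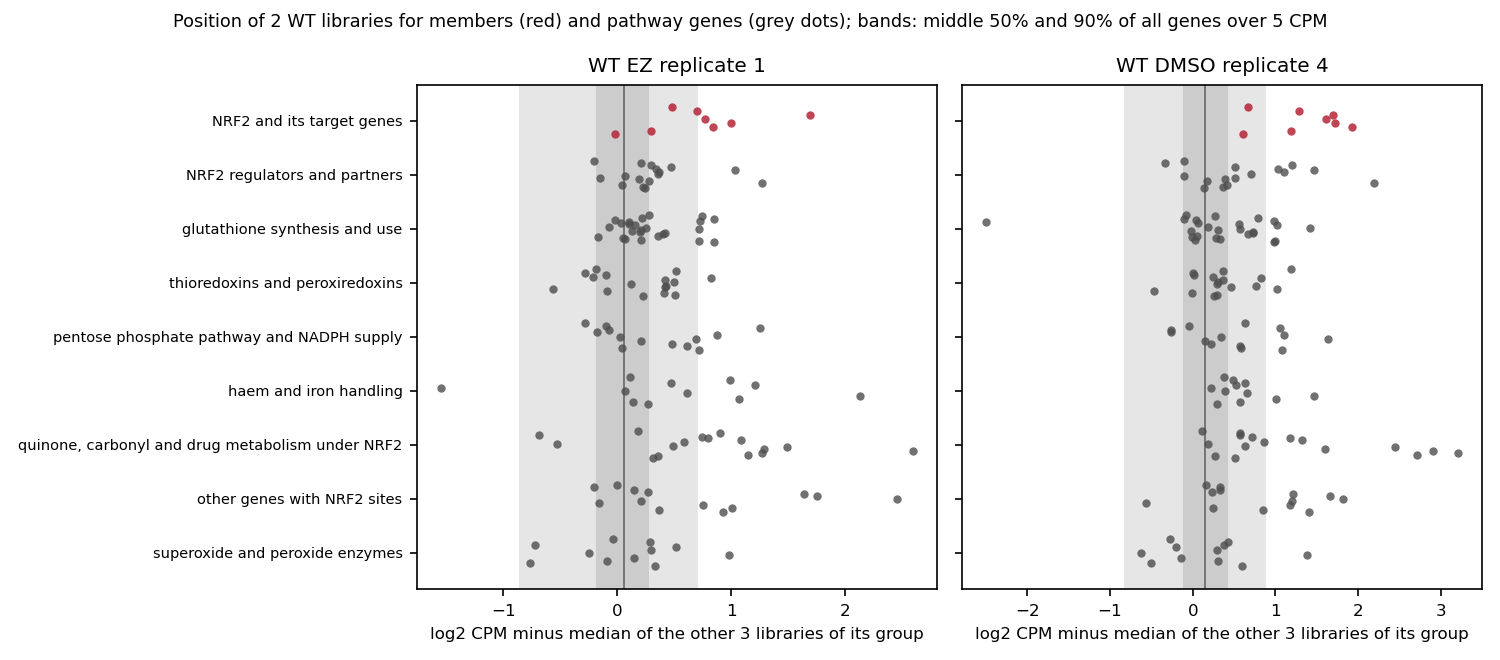
The x axis is the log2 CPM of 1 library minus the median of the other 3 of its group, for WT EZ replicate 1 (left) and WT DMSO replicate 4 (right); rows are the 9-gene set (red, 8 tested) and 8 pathway lists (grey dots), and the bands hold the middle 50% and 90% of 11521 genes over 5 CPM. In WT DMSO replicate 4, 6 of the 8 red points lie beyond the upper edge of the wide band, at 0.87.

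DKO cells were compared with WT cells to ask what loss of RB and p53 changes without the drug. TALDO1 was lower in DKO, at 133 ± 13.0 CPM in DKO DMSO and 211 ± 51.3 CPM in WT DMSO (SD, n = 4 each), a log2 fold change of -0.67 ± 0.15 (edgeR adjusted p = 0.00420), and its groups did not overlap. GCLM averaged 73.2 ± 14.6 CPM in DKO DMSO and 180 ± 160 CPM in WT DMSO, a log2 fold change of -1.30 ± 0.43 (adjusted p = 0.0497). The GCLM value was -0.40 ± 0.21 (adjusted p = 0.228) without WT DMSO replicate 4. The GCLM call was kept in 2 of the 16 fits that left out 1 library. In all, 2 of 8 genes were past the threshold, both lower, beside 18.6% of all tested genes (9.70% lower).

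The other 6 did not pass. TXNRD1 had a log2 fold change of -0.87 ± 0.31 (adjusted p = 0.0644), GCLC -0.67 ± 0.23 (0.0545), NQO1 -0.86 ± 0.36 (0.117), HMOX1 -0.86 ± 0.46 (0.231), PGD -0.30 ± 0.24 (0.436) and NFE2L2 -0.25 ± 0.16 (0.313). Without WT DMSO replicate 4 all of these shrank, to -0.22 for TXNRD1, -0.25 for GCLC, -0.18 for NQO1, -0.24 for HMOX1 and -0.01 for NFE2L2, and PGD turned to 0.16. TALDO1 kept its call without that library, at -0.47 ± 0.14 (adjusted p = 0.0326). It also kept it without any other single library. In the 10 libraries with low RN7SL1 the TALDO1 value was -0.55 ± 0.21 (adjusted p = 0.134), and no member passed there, beside 10.9% of all tested genes. A fit of all libraries with a term for the RN7SL1 set kept the TALDO1 call, beside 20.4% of all tested genes.

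With EZ, DKO was again set against WT. TALDO1 was lower in DKO, at 142 ± 5.82 CPM in DKO EZ and 233 ± 38.9 CPM in WT EZ (SD, n = 4 each), with a log2 fold change of -0.71 ± 0.15 (edgeR adjusted p = 0.00247). It was the 1 of 8 genes past the threshold, beside 20.7% of all tested genes (11.4% lower), and it kept the call without any single library, but not in the low RN7SL1 libraries (-0.51 ± 0.21, adjusted p = 0.169). With the term for the RN7SL1 set the TALDO1 call was kept, beside 22.9% of all tested genes. DKO EZ libraries lay below all WT EZ libraries for NQO1, TXNRD1, PGD and TALDO1, which is 4 of 8, beside 13.4% of all tested genes. The log2 fold change was -1.14 ± 0.46 for HMOX1 (adjusted p = 0.0964), -0.73 ± 0.36 for NQO1 (0.181), -0.60 ± 0.23 for GCLC (0.0771), -0.49 ± 0.42 for GCLM (0.484), -0.44 ± 0.24 for PGD (0.213) and -0.43 ± 0.31 for TXNRD1 (0.382). NFE2L2 was at 0.00 ± 0.16 (0.998).

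A pair of WT libraries bore on this comparison in opposite ways. Leaving out WT DMSO replicate 4, which is not among the groups compared but enters the shared estimate of the spread, gave 5 members lower, namely GCLC, HMOX1, NQO1, PGD and TALDO1. Of all tested genes, 21.3% passed in that fit (2507 genes lower). GCLC then had -0.58 ± 0.14 (adjusted p = 0.00602). Leaving out both WT libraries gave 2, GCLC at -0.49 ± 0.14 (0.0221) and TALDO1 at -0.59 ± 0.13 (0.00370), and HMOX1 shrank to -0.46 ± 0.20 (0.127). There 19.5% of all tested genes passed. Without WT EZ replicate 1 alone, TALDO1 had -0.59 ± 0.16 (0.0192), and GCLC had -0.49, HMOX1 -0.46, NQO1 -0.43, PGD -0.27, GCLM -0.20 and TXNRD1 -0.20, these 6 not past the threshold.

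**Figure D4:**
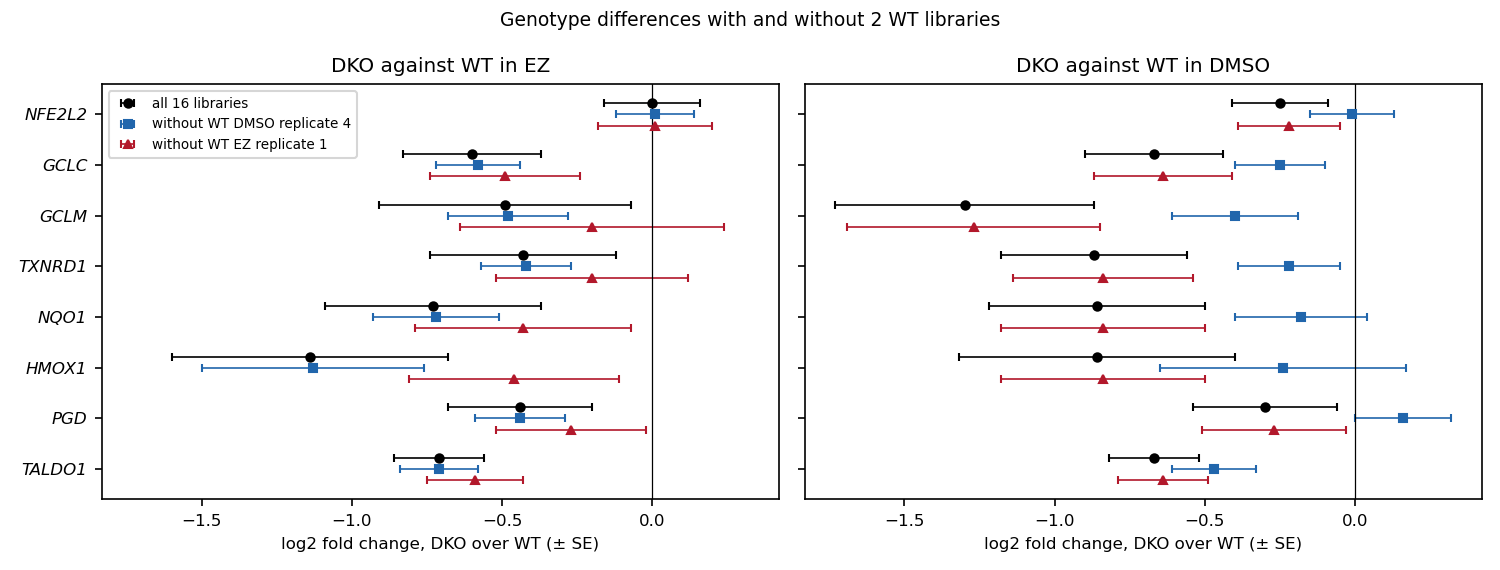
Log2 fold change, DKO over WT, ± SE from edgeR for 8 genes down the page, in EZ (left) and in DMSO (right), with all 16 libraries (black), without WT DMSO replicate 4 (blue) and without WT EZ replicate 1 (red). In DMSO the GCLM value is -1.30 with all libraries and -0.40 without WT DMSO replicate 4, and TALDO1 stays left of 0 in all fits shown.

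For these genes the response to EZ was not shown to differ between the genotypes. The interaction, which is the log2 response of DKO less the log2 response of WT, passed the adjusted threshold for 0 of 21810 genes in edgeR (648 at an unadjusted p under 0.05, none of them a member) and for 10 genes in DESeq2, again with 0 members. With the replicate number as a block within each genotype, 39 genes passed, 0 of them members and 1 of them on the pathway lists described next. That gene was SESN1, a sestrin, named after its values were seen, with a difference of -0.74 ± 0.13 (edgeR adjusted p = 0.0489). Intervals were wide. The difference was 0.81 for GCLM (95% interval -0.48 to 2.09), 0.44 for TXNRD1 (-0.49 to 1.37), 0.25 for NFE2L2 (-0.22 to 0.73), 0.14 for NQO1 (-0.94 to 1.22), 0.07 for GCLC (-0.62 to 0.75), -0.04 for TALDO1 (-0.49 to 0.40), -0.15 for PGD (-0.85 to 0.56) and -0.28 for HMOX1 (-1.67 to 1.11). Without WT DMSO replicate 4 the differences were -0.08 for GCLM, -0.20 for TXNRD1, 0.02 for NFE2L2, -0.54 for NQO1, -0.34 for GCLC, -0.24 for TALDO1, -0.60 for PGD and -0.90 for HMOX1, with 0 genes past the threshold.

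The rest of the pathway was followed in 8 lists of 130 genes, of which 129 matched a gene in the tables and 121 were tested. The lists were written with earlier results of these data known. Their shares, here and below, are descriptions beside those of all tested genes and not tests of the lists. With EZ in DKO, 3 were higher and 0 lower, or 2.48% higher, against 1.03% of all tested genes. They were SELENOW, a selenoprotein, at 31.4 ± 1.96 CPM in EZ and 16.0 ± 3.76 CPM in DMSO (log2 0.96 ± 0.17, edgeR adjusted p = 0.00971), RXRA, the retinoid X receptor, at log2 0.58 ± 0.10 (0.00692), and CYP1A1 at 2.29 ± 0.52 (0.0386). CYP1A1, a cytochrome P450 best known as a target of the aryl hydrocarbon receptor, stood at only 2.08 ± 0.594 CPM in EZ and 0.401 ± 0.332 CPM in DMSO, and leaving out any of 10 libraries ended its call. With the replicate block within genotype the DKO count was 10 higher and 5 lower. Over all tested genes that block gave 1010 higher and 681 lower in DKO (7.75% together, against 1.48% without it).

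With EZ in WT, 8 list genes were higher and 1 lower (6.61% and 0.826%, against 2.25% and 1.07% of all tested genes). Those higher included SELENOW, at 60.0 ± 11.8 CPM in EZ and 21.6 ± 3.77 CPM in DMSO (log2 1.48 ± 0.17, edgeR adjusted p = 1.82e-04), SESN1 at 225 ± 21.1 CPM in EZ and 91.8 ± 20.6 CPM in DMSO (1.29 ± 0.18, 6.34e-04), and RXRA at 153 ± 16.0 CPM in EZ and 94.1 ± 7.84 CPM in DMSO (0.70 ± 0.10, 6.37e-04). Those 3 passed without any single library. ALDH1L1 (2.04 ± 0.44), PTGR1 (0.79 ± 0.19), PRDX6 (0.54 ± 0.11), a peroxiredoxin, and GSTM3 (0.49 ± 0.13), a glutathione transferase, were also higher, and each lost its call on leaving out 1 or more libraries. CYP1A1 was the last of the 8, at only 0.789 ± 0.410 CPM in EZ and 0.157 ± 0.0971 CPM in DMSO.

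SLC7A11, the cystine transporter that supplies cysteine for glutathione and a known target of both NRF2 and ATF4, was the 1 list gene lower with EZ in WT. It had 646, 359, 370 and 301 CPM in WT EZ libraries, against 512, 903, 795 and 1565 CPM in WT DMSO libraries (log2 -1.17 ± 0.30, edgeR adjusted p = 0.0471). Leaving out any of 13 libraries ended that call, and the replicate block within genotype gave an adjusted p of 0.147. In DKO it averaged 374 ± 44.2 CPM in EZ and 495 ± 159 CPM in DMSO, which did not pass (-0.41 ± 0.30, adjusted p = 0.646). The regulators KEAP1, MAFG and BACH1 had log2 fold changes with EZ of -0.13, 0.05 and 0.26 in DKO and 0.07, 0.04 and 0.03 in WT, none past the threshold. The WT count over the lists was 15 higher and 0 lower of 123 tested without WT DMSO replicate 4, and the replicate block within genotype gave 24 higher and 1 lower of 121. Calls over all tested genes rose as well, from 491 higher and 233 lower (3.32% together) with all libraries. They were 828 higher and 223 lower (4.70%) without WT DMSO replicate 4, and 1672 higher and 969 lower (12.1%) with the block.

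Between the genotypes, more list genes were lower in DKO than higher with TMM scaling. In DMSO 4 were higher and 20 lower (3.31% and 16.5%, against 8.91% and 9.70% of all tested genes), with a median log2 fold change of -0.24, against -0.06 over all tested genes. In EZ 7 were higher and 33 lower (5.79% and 27.3%, against 9.29% and 11.4%), with a median of -0.27, against -0.01. Without WT DMSO replicate 4 the DMSO counts were 5 higher and 9 lower of 123, and those in EZ 9 higher and 34 lower. All tested genes then had 2051 higher and 1515 lower in DMSO, and 2269 higher and 2507 lower in EZ. The split of the list genes moved with scaling and with the libraries with high RN7SL1, and so did that of all tested genes. On library totals without scaling, which moved the median of all genes to 0.14 in DMSO and 0.23 in EZ, 12 list genes were higher and 9 lower in DMSO, and 15 were higher and 15 lower in EZ. Over all tested genes that scaling gave 3479 higher and 1082 lower in DMSO, against 1943 and 2115 with TMM, and 3966 higher and 1183 lower in EZ, against 2027 and 2481. In the 10 low RN7SL1 libraries alone (WT replicates 2 to 4 and DKO replicates 3 and 4), 4 list genes were higher and 4 lower in DMSO, and 6 were higher and 7 lower in EZ. Over all tested genes those libraries gave 1628 higher and 920 lower in DMSO, and 1598 higher and 941 lower in EZ. Of the 24 list genes named in DMSO and 30 named in EZ, 0 changed sign under another scaling, and on library totals 13 and 19 of them still passed. Those that passed without any single library were 9 of the 24 and 14 of the 30.

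Among regulators, KEAP1 was lower in DKO, at 61.6 ± 9.29 CPM in DKO DMSO and 85.0 ± 7.86 CPM in WT DMSO (log2 -0.46 ± 0.13, edgeR adjusted p = 0.0179), and at 56.4 ± 7.95 CPM in DKO EZ and 89.2 ± 9.43 CPM in WT EZ (-0.66 ± 0.13, 0.00148). The call in EZ held without any single library, and that in DMSO was lost for 5 libraries left out, among them WT DMSO replicate 4 (0.0833), and on library totals. SQSTM1 was lower in DKO in DMSO (-2.03 ± 0.55, 0.0189) and in EZ (-2.08 ± 0.55, 0.0153), as was MAFG, a small MAF partner of NRF2 (-0.77 ± 0.25, 0.0433, and -0.75 ± 0.25, 0.0448). Without WT DMSO replicate 4 the SQSTM1 and MAFG calls in DMSO were lost (0.0808 and 0.239), and those in EZ were kept (0.00106 and 0.00638), although DKO EZ replicates 1 and 2, each left out, ended the SQSTM1 call in EZ (0.0513 and 0.0547). The MAFG call was ended by leaving out any of 14 libraries in DMSO and any of 13 in EZ, and was absent on library totals (0.0862 and 0.105). BACH1 passed in neither (0.773 in DMSO and 0.600 in EZ).

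Of the pentose phosphate genes, TKT, transketolase, which works beside transaldolase, was lower in DKO, at 303 ± 16.6 CPM in DKO DMSO and 482 ± 101 CPM in WT DMSO (-0.67 ± 0.15, edgeR adjusted p = 0.00444), and in EZ (-0.76 ± 0.15, 0.00168). TIGAR, which diverts sugar into the pathway, was lower in DMSO (-0.93 ± 0.22, 0.00520) and in EZ (-0.90 ± 0.21, 0.00619). Both held without any single library. Among iron genes, SLC40A1, the iron exporter ferroportin, was higher in DKO, at 6.21 ± 0.596 CPM in DKO DMSO and 1.83 ± 0.391 CPM in WT DMSO (1.76 ± 0.26, 1.06e-04), and FTL, ferritin light chain, was lower in DMSO (-0.97 ± 0.24, 0.00849) and in EZ (-1.15 ± 0.24, 0.00248).

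The thioredoxin and peroxiredoxin list had 0 higher and 7 lower of 16 in EZ, and 0 higher and 2 lower of 16 in DMSO (43.8% and 12.5% lower, against 11.4% and 9.70% of all tested genes). The lower counts were 4 in EZ and 0 in DMSO on library totals, and 2 in EZ and 0 in DMSO in the low RN7SL1 libraries. Over all tested genes, the lower counts fell from 2481 in EZ and 2115 in DMSO to 1183 and 1082 on library totals. They fell to 941 and 920 in the low RN7SL1 libraries. PRDX2 stood at 113 ± 26.4 CPM in DKO EZ and 212 ± 32.6 CPM in WT EZ (-0.91 ± 0.17, edgeR adjusted p = 0.00100), and PRDX6 at 417 ± 43.6 CPM in DKO EZ and 651 ± 46.4 CPM in WT EZ (-0.64 ± 0.11, 6.34e-04). Of the sestrins, which bear on peroxiredoxin function and nutrient signalling, SESN1 was lower in DKO (-0.91 ± 0.17, 0.00126 in DMSO, and -1.63 ± 0.18, 4.98e-06 in EZ) and SESN3 higher (0.87 ± 0.19, 0.00293, and 0.89 ± 0.19, 0.00238). ABCC4, an exporter of conjugates and nucleotides, was lower (-1.04 ± 0.18, 5.31e-04, and -1.13 ± 0.18, 2.41e-04), as was NQO2, a quinone reductase paralogous to NQO1 (-0.78 ± 0.15, 0.00116, and -0.50 ± 0.15, 0.0209). The NQO2 call in EZ was lost on leaving out any of 7 libraries (up to 0.119, without DKO EZ replicate 2), with upper-quartile scaling (0.0643) and on library totals (0.194).

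The 5 protein-coding genes whose pattern over the 16 libraries was most like that of GCLC, by root-mean-square difference of centred log2 CPM, were IL6ST (0.15), SLC9A7 (0.22), SH3BP4 (0.22), REXO2 (0.23) and SIRT2 (0.24), against a median of 0.57 over 10688 genes. Of the other members the nearest was NQO1, at 0.29, followed by TXNRD1 at 0.37, TALDO1 at 0.39 and GCLM at 0.44. PGD (0.54), NFE2L2 (0.56) and HMOX1 (0.60) were about as far from GCLC as the median gene. The likeness is a description over libraries that share groups.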

How the data were processed

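Total RNA was sequenced after depletion of ribosomal RNA, per the labels' protocols, in 16 LNCaP libraries, assigned to 4 groups of 4 by their titles. Unnormalised counts of reads for every Ensembl gene, as whole numbers, are what the authors deposited for each library. The submitters' processing notes list STAR 2.7.3a and GRCh38 with no role attached. How reads were counted, on which strand and with which annotation is not given in the sources used here, so reads of overlapping genes and near-identical family members are uncertain. Symbols were matched for 60357 of 60676 gene IDs, and coordinates come from GENCODE release 29 on GRCh38.

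The software was edgeR 4.0.16 under R 4.3.3. The filter filterByExpr (minimum count 10, minimum total 15) left 21810 genes, and scaling was by TMM. A single fit of all 16 libraries gave each group its own mean, and contrasts of these were tested by the robust quasi-likelihood F-test with Benjamini-Hochberg adjustment over all tested genes at 0.05; adjusted p-values are from this test unless another tool is named. Fold changes are log2 ± SE, levels CPM ± SD, and the biological coefficient of variation was 28.0%. Intervals of 95% are from the model, and the floor of 3 counts covers counting error only. Percentiles, likeness and pair differences used log2 CPM with a prior count of 2. Replicates of a group differed by more than sampling noise (chi-square per degree of freedom 4.87 to 88.7), so none was taken for a library deposited more than once; the comparison does not show that they were prepared separately. Alternatives were other scalings, no filter, DESeq2 1.42.0, replicate blocks, RN7SL1 sets and libraries left out. The scripts were tested on simulated data.

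Deviations of libraries with the same number from their group means correlated at 0.33 to 0.62 between EZ and DMSO in WT and at 0.40 to 0.66 in DKO, so the numbers paired the samples within a genotype; the pairing comes from the data and the numbers in the titles. Between genotypes the correlations were -0.07, 0.29, 0.32 and 0.67 in DMSO and -0.05, 0.23, 0.23 and 0.52 in EZ; since 1 of 4 pairs was under 0.1 in each, the numbers were not taken to pair the samples there.

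The 9 members and the 8 pathway lists were chosen with earlier results of these data known. Named were the 9 members, KEAP1, BACH1, MAFG and SLC7A11, up to 3 highest and 3 lowest genes per list past the threshold with at least 1 CPM in the higher group, of which a selection is printed, and the 5 genes most like GCLC among protein-coding genes over 5 CPM. SOD2, on one of the lists, is not analysed here, and some other genes are not reported here.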

Additional observations from a re-analysis of the deposited data

Results flagged for a closer look

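In 9 of the 32 combinations of a tested gene and a group, 1 library lay apart from the other 3 by more than Dixon's 95% limit for a gap within the group's range. For a single gene, chance gives that in about 1 of 20 groups. The combinations are not independent, since the genes were read in the same libraries and moved together there. The count of 9 is therefore not set against that rate. WT EZ replicate 1 was such a library for GCLM (206 CPM), TXNRD1 (1180 CPM) and HMOX1 (126 CPM). WT DMSO replicate 4 was such a library for GCLM (420 CPM), NQO1 (256 CPM), TXNRD1 (1831 CPM), HMOX1 (34.7 CPM) and PGD (715 CPM). DKO DMSO replicate 4 was the highest library of its group for GCLC (49.2 CPM). In each case the library was the highest of its group and also held the lowest level of mitosis genes there.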

How the results depend on the processing

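The cause of each change below was not tested. The alternatives without both WT DMSO replicate 4 and WT EZ replicate 1, and the block within genotype without the WT replicate 4 pair, were chosen after seeing the data. SRXN1, with 0 to 4 counts per library, was not tested. In sensitivity to scaling, the share of calls that were higher was 67.8% with TMM and 56.1% with upper-quartile scaling for EZ in WT, and 45.0% and 58.1% for DKO against WT in EZ. Where the block is by number across genotypes, the numbers were only a hint from the data, since 3 of 4 pairs in DMSO and 2 of 4 in EZ correlated best with their own number.

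For EZ against DMSO in WT, 724 genes passed with all libraries. The count was 436 without the filter, 1239 with DESeq2, 1724 with the replicate block, 2641 with the replicate block within genotype, 294 from the groups compared alone, 371 in the low RN7SL1 libraries, 3081 with the block within genotype without the WT replicate 4 pair, and 304 to 1051 on leaving out 1 library. For EZ against DMSO in DKO, 322 genes passed, and the count was 167 without the filter, 806 with DESeq2, 1104 with the replicate block, 1691 with the block within genotype, 519 with an RN7SL1 term, 13 in the low RN7SL1 libraries, 691 without both WT libraries, 2608 with the block without the WT replicate 4 pair, and 73 to 451 on leaving out 1 library. Between genotypes 4058 genes passed in DMSO (2548 in the low RN7SL1 libraries, 2957 to 4167 with 1 library out) and 4508 in EZ (2539 and 3270 to 4776). The interaction count was 0, with 10 in DESeq2, 1 with the replicate block, 39 with the block within genotype, 1 without both WT libraries, 70 with the block without the WT replicate 4 pair, and 0 to 0 with 1 library out.

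No count of members is given for EZ against DMSO, since their choice used those contrasts. For DKO against WT in DMSO 2 members passed, but 1 with relative log expression or upper-quartile scaling, library totals, no filter, the replicate block, the groups compared alone, an RN7SL1 term, without both EZ replicate 1 libraries, or without both WT libraries, 4 with DESeq2, 0 in the low RN7SL1 libraries, and 1 to 3 with 1 library out. The replicate block ended the GCLM call there (adjusted p = 0.0802). Of all tested genes in DMSO, 18.6% passed with all libraries, 20.9% with DESeq2 and 10.9% in the low RN7SL1 libraries. The share was 13.1% to 18.5% with 1 library out. In the settings above with 1 member it ran from 6.55% (no filter) to 26.9% (replicate block). For DKO against WT in EZ the member count was 1, but 2 with DESeq2, 3 from the groups compared alone, 0 in the low RN7SL1 libraries, 2 without both WT libraries, and 1 to 5 with 1 library out. Of all tested genes in EZ, 20.7% passed with all libraries, 22.6% with DESeq2 and 20.8% from the groups compared alone. The share was 10.8% in the low RN7SL1 libraries, 19.5% without both WT libraries and 14.6% to 21.3% with 1 library out.

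Signs turned mainly in the interaction. GCLC was at -0.03 and NQO1 at -0.00 with the block within genotype, both at -0.25 without both WT libraries, and GCLC at -0.43, GCLM at -0.11, NQO1 at -0.45 and TXNRD1 at -0.16 with the block without the WT replicate 4 pair. HMOX1 was at 0.24, PGD at 0.14 and TALDO1 at 0.04 in the low RN7SL1 libraries, and at 0.28, 0.03 and 0.04 without both EZ replicate 1 libraries. With 1 library out the interaction ran from -0.34 to 0.17 for GCLC, -0.08 to 1.07 for GCLM, -0.54 to 0.41 for NQO1, -0.20 to 0.65 for TXNRD1, -0.90 to 0.38 for HMOX1 and -0.24 to 0.05 for TALDO1. NFE2L2 in EZ was at -0.01 with the replicate block and -0.07 to 0.14 with 1 library out. PGD in DMSO was at 0.16 without both WT libraries and -0.42 to 0.16 with 1 library out.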

Other observations

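In WT EZ replicate 1, GDF15, a stress-induced secreted factor, stood at 978 CPM, against 177, 165 and 319 CPM in the other WT EZ libraries, and in WT DMSO replicate 4 at 537 CPM, against 126, 165 and 153 CPM in the other WT DMSO libraries. FTH1, ferritin heavy chain, stood at 35.9 CPM in WT EZ replicate 1, against 8.13, 8.08 and 9.05 CPM in the others, and at 39.0 CPM in DKO EZ replicate 1, against 15.1, 11.5 and 9.85 CPM in the other DKO EZ libraries. Its level is uncertain, since how reads of near-identical sequences were counted is not given. WT EZ replicate 1 and DKO EZ replicates 1 and 2 are libraries with high RN7SL1, and the part of that in these values was not tested. These genes were chosen after their values were seen and carry no test here. By list, WT DMSO replicate 4 was the highest of its group for 10 of 11 haem and iron genes, 13 of 16 regulators, and 5 of 11 superoxide and peroxide enzymes, beside 32.7% of all tested genes.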
